A study of Arabidopsis thaliana with 9 samples.

Results

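The transcriptomes of clpp2-2 and clpp2-1, which are both knock-out lines of the Arabidopsis thaliana gene CLPP2 (AT5G23140), were compared directly with each other. The 3 libraries of clpp2-2 were set against the 3 libraries of clpp2-1, 6 of the 9 libraries of the study, over all 20294 genes tested of 22254 in the deposited table. The remaining 3 libraries, from the wild type (wt), are shown for reference. All plants were of the Columbia-0 background, and RNA came from whole seedlings at 2 weeks of age, kept in hydroponic half-strength MS medium under 16 h of light (150 µmol m-2 s-1, 22 °C) and 8 h of darkness (18 °C). The labels call clpp2-1 the first and clpp2-2 the second knock-out. The insertion sites, whether a line was backcrossed and whether the replicates came from separate cultures are not given in the sources used here, so the p-values measure the spread between these libraries, which may be technical. Each line is a single genotype: a difference between the lines that comes from the CLPP2 alleles cannot be told apart from one that comes from anything else in which the lines' genomes or histories differ.

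CLPP2 encodes the proteolytic subunit of the ATP-dependent Clp protease of plant mitochondria, which works together with the chaperone CLPX: CLPX unfolds proteins and feeds them into the proteolytic chamber. When independent knock-out lines of 1 gene are studied, their direct comparison shows which RNA levels the lines do not share. In seedlings, peroxisomes carry out the beta-oxidation of fatty acids, and the glyoxylate cycle turns the resulting acetyl units into precursors of sugars.

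Total counts per library ran from 36043744 to 36477053 over all 9 libraries, and between 21459 and 21546 genes had a count above 0. The median difference between the lines over all genes tested was -0.01 on the log2 scale. Levels are given below as CPM, the counts scaled to a common library size with TMM factors, and log2 changes are those of clpp2-2 over clpp2-1, positive where clpp2-2 was higher. Genes are said to be called where edgeR's quasi-likelihood test gave a p under 0.05 after Benjamini-Hochberg adjustment over the genes tested, which was so for 3.97% of them. The libraries wt 1, wt 2 and clpp2-1 1 held the most RNA of seed storage and oil body genes: the summed level of 9 such genes was 13.2, 2.73 and 0.923 CPM in clpp2-1, 0.687, 1.13 and 1.21 CPM in clpp2-2, and 110, 23.8 and 0.431 CPM in the wild type. Of the 6 tested genes of that list edgeR, limma-voom and DESeq2 each called 0, and 0 had an unadjusted p under 0.05 in edgeR.

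The targeted gene was low in every library of both lines. CLPP2, listed in the annotation as NCLPP7, lay at 5.72, 4.88 and 6.08 CPM in clpp2-1 and at 4.64, 4.64 and 4.52 CPM in clpp2-2, against a wild-type mean of 44.6 ± 1.83 CPM (SD, n = 3). The 3 clpp2-2 libraries were the lowest, and the difference between the lines did not pass the test (log2 -0.27, SE 0.09, adjusted p = 0.119). Of the 20 tested genes within 10 positions of CLPP2 on chromosome 5 edgeR called 0 and limma-voom 0, DESeq2 called 2, and 5 had an unadjusted p under 0.05 in edgeR. Of the 3 genes for CLPX-type chaperones, 1 was called: AT1G33360, annotated as an ATP-dependent Clp protease, stood at 53.0, 43.4 and 47.4 CPM in clpp2-1 and at 72.9, 73.5 and 76.0 CPM in clpp2-2 (log2 0.63, SE 0.11, adjusted p = 0.0211). This call was lost when clpp2-1 2, clpp2-1 3 or any clpp2-2 library was left out (adjusted p = 0.0598 to 0.0818). CLPX (AT5G53350) was at 214 ± 1.97 and 210 ± 3.58 CPM (adjusted p = 0.698), and AT5G49840 at 25.3 and 27.1 CPM (adjusted p = 0.259). The shares of organelle RNA could not reach significance in this design. Mitochondrial genes took 0.0955 ± 0.0104% of counts in clpp2-1 and 0.110 ± 0.00454% in clpp2-2, a ratio of 1.15, and plastid genes 0.447 ± 0.0640% and 0.523 ± 0.0422%, a ratio of 1.17 (SD, n = 3; exact two-sided permutation p = 0.2 for each, where the smallest p that 3 against 3 allow is 0.1). Of 116 mitochondrial identifiers tested 5 were called (4.31%), all higher in clpp2-2: ATMG00030, ATMG00090, ATMG00110, ATMG01220 and ATMG01370, by log2 0.32 to 0.58. The median of the 116 was 0.325, 33 had an unadjusted p under 0.05, and the lines did not overlap for 45.7% of them, against 31.4% of all genes tested. Of 77 plastid identifiers edgeR called 0, limma-voom 1 and DESeq2 11, all higher, and 17 had an unadjusted p under 0.05 in edgeR. For scale, 4269 of all 20294 genes tested had an unadjusted p under 0.05 in edgeR, limma-voom called 816 and DESeq2 1776.

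Between the lines 806 genes were called, 3.97% of those tested. Of these 475 were higher in clpp2-2 (2.34%) and 331 lower (1.63%), and 199 differed at least 2-fold (0.981%), 141 of them higher and 58 lower. In all 806 the 3 libraries of one line lay above the 3 of the other, which was also so for 6375 genes (31.4%) of all those tested. Most called differences were modest, with a median absolute log2 change of 0.56. The share called was 3.96, 4.36, 3.95, 3.61 and 4.04% on chromosomes 1 to 5. On the first principal component, which held 22.7% of the variance, the clpp2-2 libraries lay from 46.0 to 49.9, the clpp2-1 libraries from -26.6 to -11.9 and the wild-type libraries from -38.1 to -12.5. The wild-type mean, given as a description, lay below both lines in 234 and between them in 237 of the 475 genes higher in clpp2-2, and above both in 165 and between them in 165 of the 331 lower ones. The number of calls depended on the libraries: with 1 library of either line left out 171 to 373 genes were called, and without wt 2 there were 1463.

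**Figure D1:**
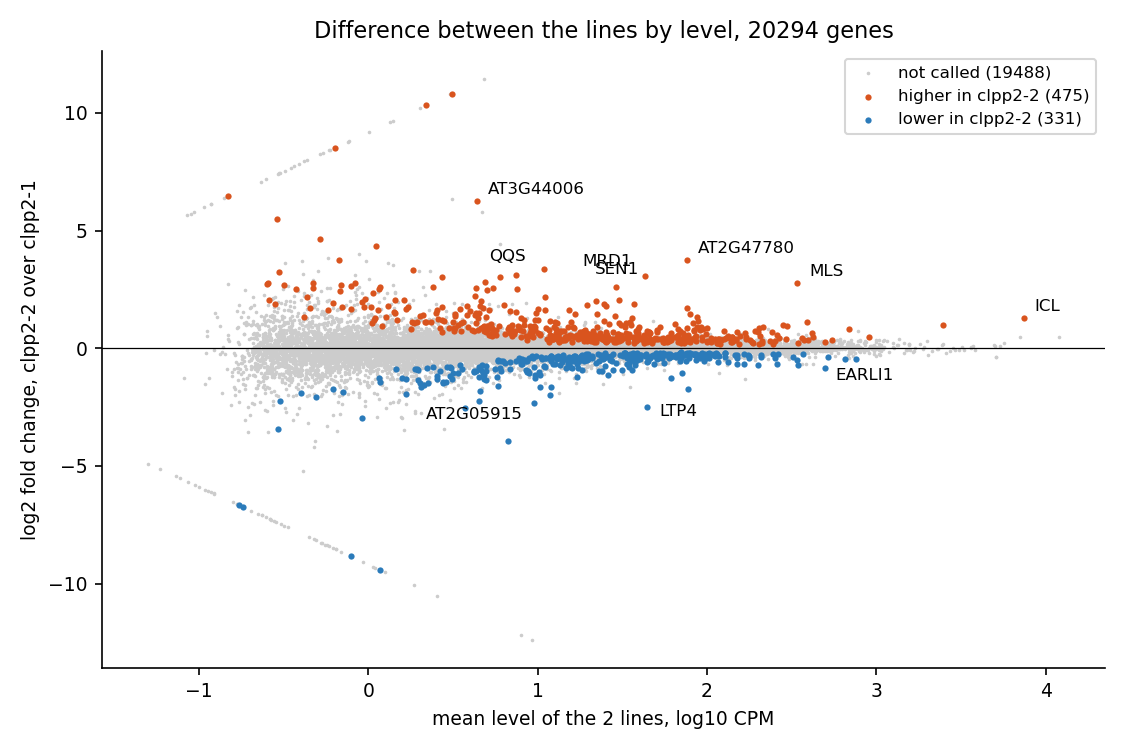
Log2 fold change of clpp2-2 over clpp2-1 (vertical axis) against the mean level of both lines in log10 CPM (horizontal axis) for the 20294 genes tested, with the 475 genes called higher in clpp2-2 in orange, the 331 called lower in blue and the others in grey. ICL lies at the far right at a log2 change of 1.30, and the straight arms at the left edge are genes with only zeros in one line, whose fitted changes depend on the prior count.

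Most of the tested genes of peroxisomal fatty acid breakdown were higher in clpp2-2. Of 12 tested genes of beta-oxidation and the glyoxylate cycle, a list that also holds PCK1, 9 were called, all higher in clpp2-2. The list's median log2 change was 0.56 against -0.01 over all genes. ICL encodes isocitrate lyase, the first enzyme particular to the glyoxylate cycle, and stood at 3642, 4117 and 5241 CPM in clpp2-1 and at 12720, 9752 and 9448 CPM in clpp2-2. The lines did not overlap, and the lowest clpp2-2 library was above the highest clpp2-1 library by more than the range within clpp2-1 (log2 1.30, SE 0.15, adjusted p = 0.0044; wild-type mean 4141 CPM). MLS, malate synthase, the enzyme that acts after isocitrate lyase, stood at 65.5, 99.5 and 93.3 CPM in clpp2-1 and at 706, 552 and 523 CPM in clpp2-2 (log2 2.79, SE 0.26, adjusted p = 0.0015). The lowest MLS level in clpp2-2 was several times the highest in clpp2-1, and clpp2-2 1 was again the highest library. PCK1, the phosphoenolpyruvate carboxykinase that draws carbon from the cycle into gluconeogenesis, stood at 1487, 1737 and 1715 CPM and at 3675, 3161 and 3070 CPM (log2 1.00, SE 0.10, adjusted p = 0.00244).

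Of the enzymes of the beta-oxidation spiral, PKT3, MFP2, ACX2 and ACX3 were called, and ACX1 and ACX4 were not. PKT3, the 3-ketoacyl-CoA thiolase of the last step, stood at 448, 549 and 497 CPM in clpp2-1 and at 967, 859 and 832 CPM in clpp2-2 (log2 0.83, SE 0.09, adjusted p = 0.00272). MFP2, the multifunctional protein of the middle steps, stood at 163, 210 and 188 CPM in clpp2-1 and at 433, 351 and 338 CPM in clpp2-2 (log2 1.00, SE 0.12, adjusted p = 0.00428). For both genes clpp2-2 1 was the highest library. Of the acyl-CoA oxidases, which open the spiral, ACX2 (log2 0.69, adjusted p = 0.012) and ACX3 (log2 0.43, adjusted p = 0.0142) were higher, while ACX1 was at 144 and 134 CPM (adjusted p = 0.288) and ACX4 at 184 and 183 CPM (adjusted p = 0.937). The peroxisomal acyl-CoA synthetases LACS6 (log2 0.38, adjusted p = 0.0175) and LACS7 (log2 0.39, adjusted p = 0.0376), which activate fatty acids, were higher. With single libraries left out 6 to 9 of the 12 were called. The calls lost were those of ACX3 and LACS6 without clpp2-1 1, clpp2-1 3 or clpp2-2 2 (adjusted p up to 0.0582 and 0.0679) and that of LACS7 without any 1 library of the lines or wt 1 (up to 0.0949). The seed storage sums given above were not raised in clpp2-2, and their part in the result was not tested. The summed level of light-harvesting and Rubisco small subunit genes was 26510, 26520 and 24750 CPM in the clpp2-1 libraries against 28210, 36830 and 37120 CPM in those of clpp2-2, and its part in the result was not tested.

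Further peroxisomal genes, chosen after their values were seen, differed in the same direction. CAT2, the main catalase of leaf peroxisomes, stood at 258, 224 and 247 CPM in clpp2-1 and at 594, 507 and 494 CPM in clpp2-2 (log2 1.13, SE 0.08, adjusted p = 0.000546). CSY3, a peroxisomal citrate synthase, stood at 179, 185 and 196 CPM and at 332, 281 and 286 CPM (log2 0.68, SE 0.07, adjusted p = 0.00244). In both genes the lines were clearly apart, and the wild-type means were 248 and 178 CPM. Of all 19 tested genes with a PEX symbol, which encode peroxins that build, divide or load peroxisomes, 5 were called and all 5 were higher. Of the PEX11 proteins, which act in peroxisome growth and division, PEX11E (27.5 ± 2.53 to 51.5 ± 5.51 CPM, log2 0.91) and PEX11D (71.0 ± 3.49 to 129 ± 10.9 CPM, log2 0.86) were higher (adjusted p = 0.00216 and 0.00298), and PEX11A and PEX11C were at log2 -0.01 and 0.01 (adjusted p = 0.937 and 0.971). PEX14 (log2 0.21, adjusted p = 0.0469), which serves protein import, was higher by less, and lost its call without any library but wt 2 (up to 0.155). The median of the 19 was 0.15.

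**Figure D2:**
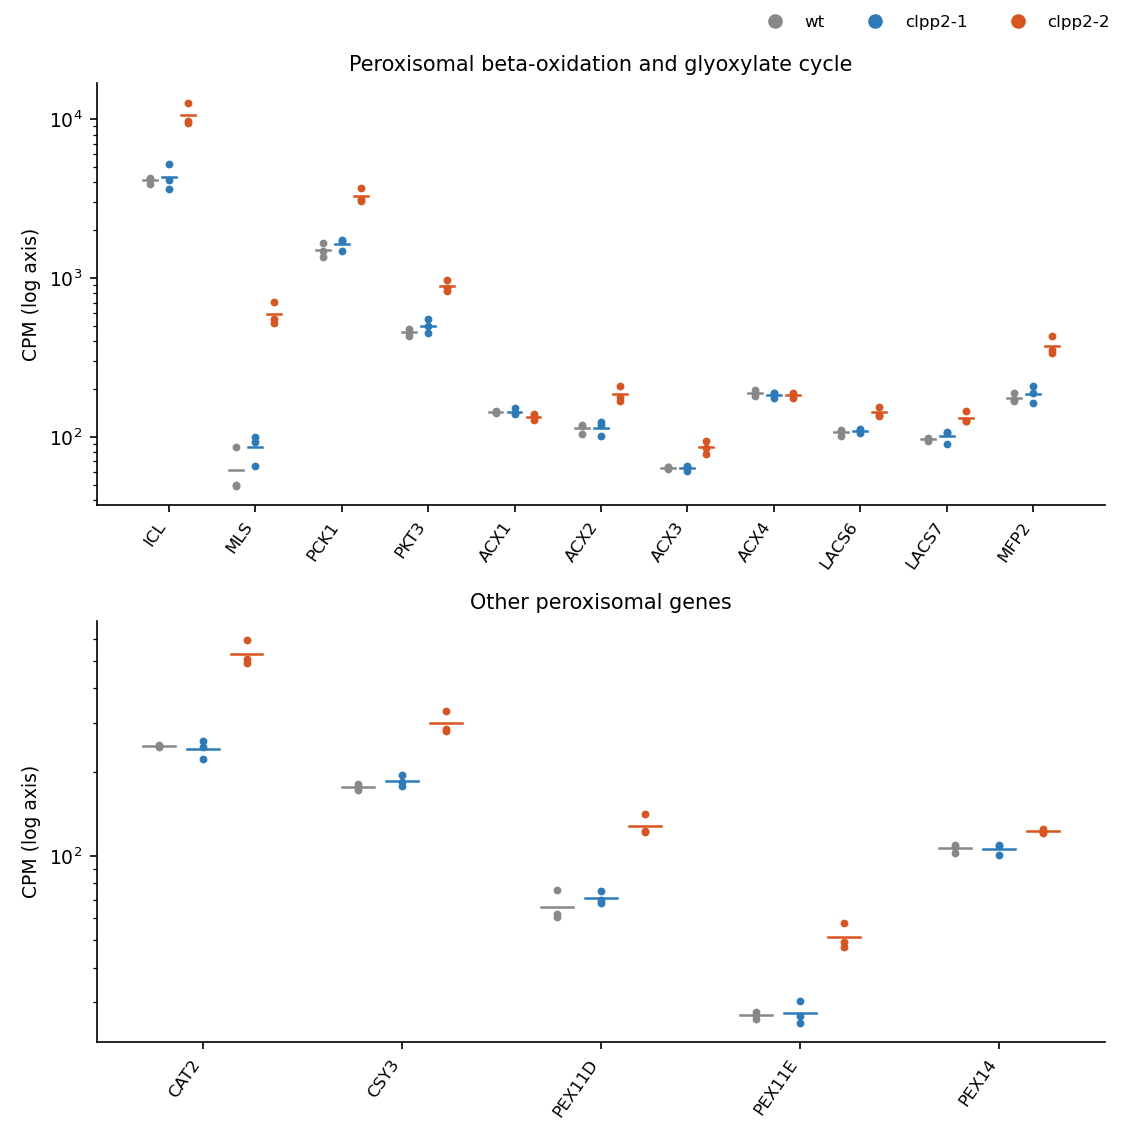
Levels in CPM on a log axis of genes of peroxisomal beta-oxidation and the glyoxylate cycle (top) and of CAT2, CSY3, PEX11D, PEX11E and PEX14 (bottom), one point per library and a bar at each mean of 3, with wild type in grey, clpp2-1 in blue and clpp2-2 in orange. The clpp2-2 points of MLS, from 523 to 706 CPM, lie farthest above those of clpp2-1, and those of ACX1 and ACX4 lie within or next to the range of the other genotypes.

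Other genes of metabolism were named for the size of their change or as members of the carbon starvation list. PPDK, pyruvate orthophosphate dikinase, which makes phosphoenolpyruvate, stood at 38.4, 58.4 and 52.5 CPM in clpp2-1 and at 144, 114 and 117 CPM in clpp2-2 (log2 1.33, SE 0.17, adjusted p = 0.00605). APL3, a large subunit of the ADP-glucose pyrophosphorylase of starch synthesis, stood at 34.3, 48.1 and 44.5 CPM and at 134, 105 and 108 CPM (log2 1.45, SE 0.19, adjusted p = 0.00742). For both, the groups were far apart, and clpp2-1 1 was the lowest and clpp2-2 1 the highest library. AT2G47780, of the rubber elongation factor protein family, had the largest change among genes with at least 50 CPM in the higher line: 6.86, 11.2 and 13.4 CPM in clpp2-1 and 157, 137 and 134 CPM in clpp2-2 (log2 3.76, SE 0.28, adjusted p = 0.000654; wild-type mean 8.15 CPM). TSPO, next to it on chromosome 2 (19568464 to 19571034 spans both genes) and chosen after its value was seen, was at 2.36 ± 0.186 and 6.21 ± 0.952 CPM (log2 1.40, adjusted p = 0.00612). Of 14 carbon starvation genes 3 were called, all higher, and the list's median was -0.04. SEN1 (AT4G35770), a gene known to be induced by darkness, stood at 5.12, 9.63 and 9.45 CPM in clpp2-1 and at 52.8, 48.9 and 47.2 CPM in clpp2-2 (log2 2.62, SE 0.22, adjusted p = 0.00092), so that no library of one line came near the other. AT3G59940, a kelch repeat protein, went from 15.4 ± 0.999 to 33.8 ± 2.92 CPM (log2 1.14, adjusted p = 0.00272). BCAT-2, a branched-chain amino acid transaminase, was higher by log2 0.57 (adjusted p = 0.042), and wt 1 or any 1 library of the lines left out ended its call (up to 0.136). The starvation genes DIN2 (7.90 ± 5.55 and 4.40 ± 1.68 CPM) and ASN1 (4.76 ± 4.20 and 3.72 ± 1.77 CPM) were not called (adjusted p = 0.56 and 0.855). SWEET10, a sugar transporter, was lower, at 9.70, 9.44 and 7.12 CPM in clpp2-1 and 2.72, 2.77 and 3.13 CPM in clpp2-2 (log2 -1.60, SE 0.15, adjusted p = 0.0014).

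Some cold-response genes, 6 of the 14 tested, were also higher in clpp2-2. CBF factors are transcription factors that bind the C-repeat, whose core is CCGAC, and switch on COR genes in the cold, and the evening element AAAATATCT is a clock-related motif. The 250 bases before the annotated start are shown for 3 genes of the group, to let the presence of these motifs be read against their values. They are from the RefSeq TAIR10.1 assembly, 5′ to 3′ on the minus strand on which all 3 genes lie, with capitals for CCGAC, AAAATATCT and the G-box CACGTG on either strand. The windows are chr2:17712331-17712580 for COR15A, chr2:17710434-17710683 for COR15B and chr4:13016236-13016485 for CBF2.
COR15A: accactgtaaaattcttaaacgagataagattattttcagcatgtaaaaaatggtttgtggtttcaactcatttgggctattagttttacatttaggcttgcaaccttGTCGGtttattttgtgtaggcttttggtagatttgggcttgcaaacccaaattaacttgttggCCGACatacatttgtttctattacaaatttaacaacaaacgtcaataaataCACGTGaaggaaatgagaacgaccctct
COR15B: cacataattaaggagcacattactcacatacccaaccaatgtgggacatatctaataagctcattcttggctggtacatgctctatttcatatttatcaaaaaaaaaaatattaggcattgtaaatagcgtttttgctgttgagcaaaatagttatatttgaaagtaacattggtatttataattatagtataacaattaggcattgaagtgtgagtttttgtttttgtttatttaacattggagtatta
CBF2: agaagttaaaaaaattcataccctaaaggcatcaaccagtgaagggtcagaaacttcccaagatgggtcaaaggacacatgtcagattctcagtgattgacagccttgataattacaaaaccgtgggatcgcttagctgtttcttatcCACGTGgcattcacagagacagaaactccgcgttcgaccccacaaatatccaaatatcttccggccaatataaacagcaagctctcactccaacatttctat
The COR15A window held 2 copies of CCGAC and 1 of CACGTG. The COR15B window held none of the 3 motifs, and the CBF2 window 1 copy of CACGTG. COR15A (chr2:17710441-17712330) lies 7 bases from COR15B, so nearly all of the COR15B window is COR15A gene sequence. The lack of motifs there therefore cannot be read as that of a separate COR15B promoter. A match of letters is a description and not a binding site.

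Of 14 tested CBF and cold-regulated genes 6 were called, all higher in clpp2-2, and the list's median log2 change was 0.57. CBF2 stood at 0.681, 0.764 and 0.625 CPM in clpp2-1 and at 4.04, 3.93 and 4.52 CPM in clpp2-2 (log2 2.59, SE 0.31, adjusted p = 0.00446). COR15B, which encodes a chloroplast protein that protects membranes in freezing, stood at 1.96, 2.51 and 2.34 CPM and at 13.0, 13.2 and 12.2 CPM (log2 2.50, SE 0.21, adjusted p = 0.00092). Both were apart by several times their spread, at low levels. Its neighbour and relative COR15A was at 6.81, 6.46 and 5.35 CPM in clpp2-1 and at 13.4, 11.1 and 11.2 CPM in clpp2-2 (log2 0.94, SE 0.15, adjusted p = 0.0175). COR27, regulated by cold and by the clock, was at 13.4, 14.6 and 13.9 CPM and at 22.5, 22.6 and 22.5 CPM (log2 0.69, SE 0.09, adjusted p = 0.00782). DREB1A, the CBF3 factor, was at 0.209 ± 0.0832 and 1.15 ± 0.289 CPM (log2 2.44, adjusted p = 0.0305), and RHL41, the zinc finger protein ZAT12, at 14.7 and 22.0 CPM (log2 0.59, adjusted p = 0.0305). The other members, among them COR47 (148 and 157 CPM, adjusted p = 0.757), COR413-PM1 (126 and 126 CPM, adjusted p = 0.995) and LTI78 (22.3 and 26.4 CPM, adjusted p = 0.355), were not called. With single libraries left out 3 to 7 members were called, and CBF2, COR15B and COR27 were called each time. DREB1A lost its call without any 1 library of the lines (up to 0.118), and COR15A (up to 0.0684) and RHL41 (up to 0.107) did so without any of them but clpp2-1 1. The coding sequences of CBF2 and DREB1A were 86.7% identical in a global alignment and those of COR15A and COR15B 82.6%, so how the authors' counting split reads between these copies is uncertain.

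In promoter windows from 250 bases before to 50 after the start, AAAATATCT on either strand was found in 32 of 470 genes higher in clpp2-2 (6.81%), in 14 of 331 lower ones (4.23%) and in 2.96% of all 20101 nuclear genes tested. CCGAC was found in 18.3, 16.9 and 16.0% and CACGTG in 10.9, 7.55 and 8.61%, in the same order. The W-box core TTGAC stood in 48.1, 49.5 and 50.9%. The motifs were searched as these letters on both strands, without regard to overlap.

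Flowering regulators differed in both directions. Of 8 tested floral genes 3 were called, 1 higher and 2 lower. FLC, the MADS-box repressor of flowering, stood at 1.58, 2.07 and 2.99 CPM in clpp2-1 and at 7.25, 6.53 and 8.07 CPM in clpp2-2 (log2 1.72, SE 0.22, adjusted p = 0.00615). AGL20, the flowering promoter SOC1, which FLC is known to repress, stood at 7.82, 6.71 and 5.51 CPM and at 2.97, 2.63 and 3.47 CPM (log2 -1.14, SE 0.17, adjusted p = 0.0116), a call lost without clpp2-2 2 (adjusted p = 0.057). SEP3, a floral organ identity gene, stood at 9.62, 7.61 and 7.03 CPM and at 3.46, 3.39 and 3.39 CPM (log2 -1.24, SE 0.14, adjusted p = 0.00293). The lines did not overlap for any of the 3, and the wild-type means, 2.1, 6.83 and 9.33 CPM, lay near those of clpp2-1. The organ identity genes AP1, AP3, PI and AG were below 1.1 CPM in the mean of every genotype and were not called. TEM1, a repressor of flowering that was chosen after its value was seen, was at 54.2 ± 3.16 and 97.7 ± 7.34 CPM (log2 0.85, adjusted p = 0.000836).

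A few loci with low RNA levels in clpp2-1 and the wild type were many times higher in clpp2-2. AT3G44006, an uncharacterized protein gene, stood at 0.109 CPM in each clpp2-1 library and at 8.79, 8.54 and 8.67 CPM in clpp2-2 (log2 6.27, SE 0.39, adjusted p = 0.00033). This was the largest change among genes with counts in all 6 libraries and at least 1 CPM in the higher line. Its clpp2-1 level was close to the 0.0817 CPM that 3 counts per library stood for there, so its size rests on few counts. MRD1 (AT1G53480) stood at 10.1, 8.97 and 8.50 CPM in clpp2-1 and at 78.7, 74.0 and 79.0 CPM in clpp2-2 (log2 3.07, SE 0.15, adjusted p = 8.93e-05). HEI10 (AT1G53490), which acts in meiotic crossing over, stood at 1.80, 1.42 and 1.25 CPM and at 7.14, 6.96 and 7.002 CPM (log2 2.24, SE 0.16, adjusted p = 0.000546). These genes overlap on chromosome 1, MRD1 on the minus and HEI10 on the plus strand, from 19963267 to 19964712, and share 922 exon bases, 73.8% of those of MRD1 and 40.9% of those of HEI10. As no source used here gives the strand of counting, reads from the shared bases cannot be told apart. Of the 20 tested neighbours within 10 positions of MRD1, HEI10 and AT1G53450 (10.5 to 19.6 CPM, log2 0.90, adjusted p = 0.0014) were called. QQS, a gene restricted to Arabidopsis that affects starch content, stood at 2.21, 1.12 and 2.47 CPM in clpp2-1 and at 19.1, 23.0 and 17.2 CPM in clpp2-2 (log2 3.35, SE 0.65, adjusted p = 0.0307), and its call was lost without any 1 library of the lines (0.0801 to 0.127). FWA and SDC, which like QQS are known as targets of silencing, had means of at most 0.569 CPM in both lines and were not called (adjusted p = 0.167 and 0.376). The list of epigenetically variable genes was drawn up with QQS, MRD1 and HEI10 already known from these data, so its 3 of 5 called genes are a description.

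Of 26 tested genes of DNA methylation and small RNA silencing 3 were called, 2 higher and 1 lower, with a median of 0.01. AGO9, an argonaute protein that binds small RNA and is known from ovules, stood at 0.681, 0.764 and 0.353 CPM in clpp2-1 and at 4.70, 4.30 and 5.56 CPM in clpp2-2 (log2 3.01, SE 0.33, adjusted p = 0.00284). MET1, the maintenance methyltransferase of CG sites, was at 14.2 and 21.9 CPM (log2 0.62, adjusted p = 0.0294), and DML1, the demethylase ROS1, at 3.67 and 2.13 CPM (log2 -0.78, adjusted p = 0.0469). The AGO9 call stood with each library left out. MET1 lost its call without any library of the lines but clpp2-2 3 (up to 0.114) and DML1 without any library but wt 2 (up to 0.167).

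**Figure D3:**
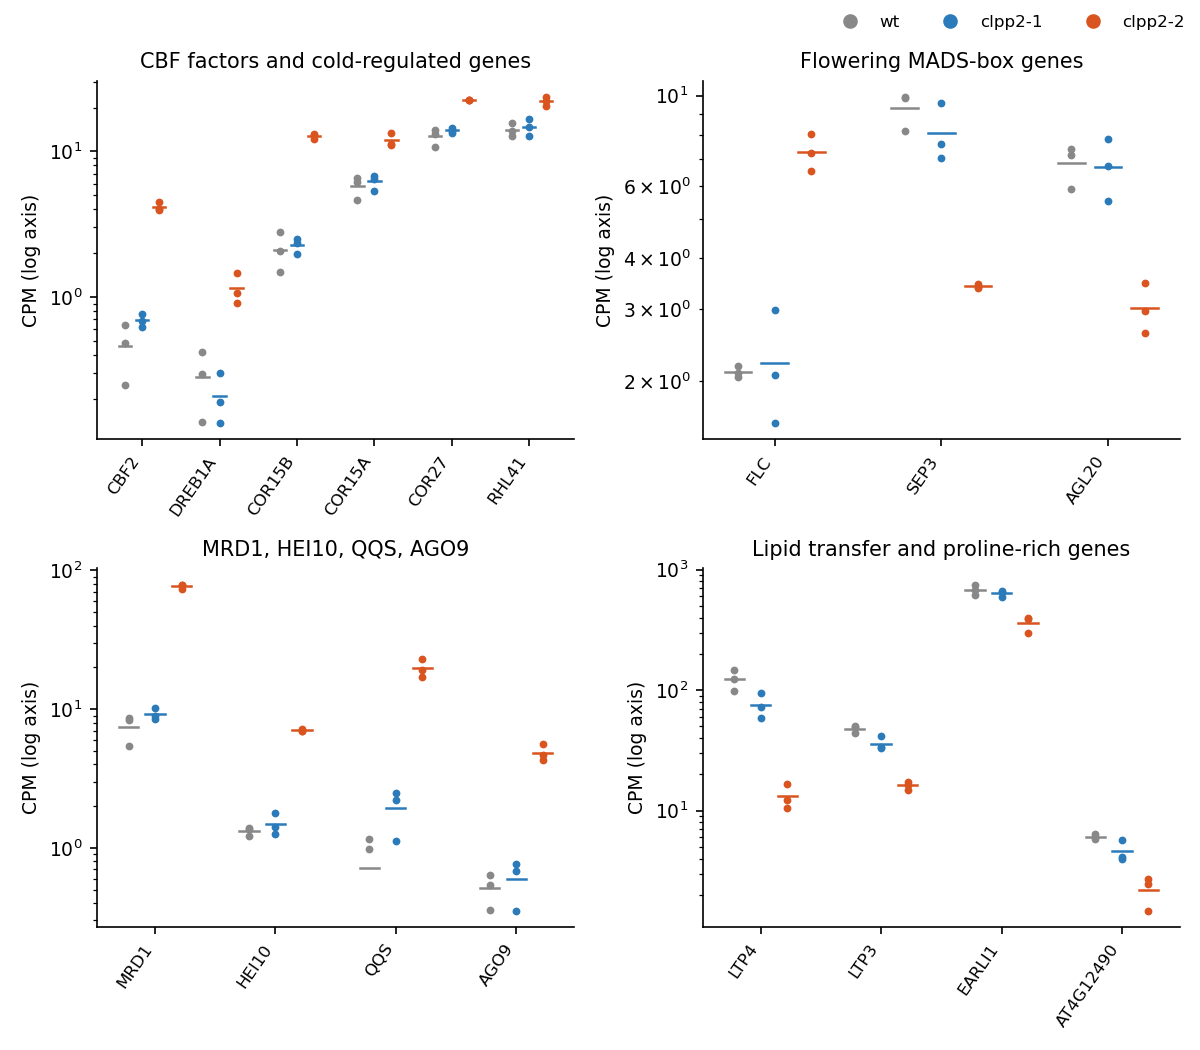
Levels in CPM on a log axis, one point per library and a bar at each mean of 3, of 6 cold-response genes, 3 flowering genes, MRD1, HEI10, QQS and AGO9, and 4 lipid transfer or proline-rich protein genes, with wild type in grey, clpp2-1 in blue and clpp2-2 in orange. The clpp2-2 points lie above the others in every gene but SEP3, AGL20, LTP4, LTP3, EARLI1 and AT4G12490, where they lie below, and 1 wild-type library at 0 for QQS has no point.

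Among the genes lower in clpp2-2, lipid transfer and related proteins included some of the largest changes. LTP4, a protein that carries lipids outside the plasma membrane, stood at 95.4, 58.7 and 72.2 CPM in clpp2-1 and at 10.6, 12.2 and 16.8 CPM in clpp2-2 (log2 -2.52, SE 0.24, adjusted p = 0.00184). LTP3 stood at 41.3, 32.9 and 33.9 CPM and at 16.4, 14.8 and 17.4 CPM (log2 -1.15, SE 0.10, adjusted p = 0.00123). These were the 2 of 6 tested members of the family that were called. LP1, LTP2, LTP5 and LTP6 had log2 changes from -0.10 to 0.41 (adjusted p = 0.244 or more). LTP3 and LTP4 are neighbours on chromosome 5 (23924990 to 23929816) with coding sequences 84.5% identical, so their split of reads is uncertain. In the AZI1 and EARLI1 cluster of proline-rich proteins on chromosome 4, 3 of 6 tested genes were called, all lower, and the median was -0.98. EARLI1 stood at 657, 660 and 595 CPM in clpp2-1 and at 298, 389 and 394 CPM in clpp2-2 (log2 -0.82, SE 0.12, adjusted p = 0.00969). AZI1, its close relative, was at 1005 ± 110 and 938 ± 113 CPM (adjusted p = 0.749). AT4G12490 (log2 -1.05, adjusted p = 0.0431) and AT4G12520 (log2 -2.98, adjusted p = 0.0376) lost their calls without any library but wt 2 (up to 0.113 and 0.135), and AT4G12520 is 99.5% identical to AT4G12510 in its coding sequence.

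Of 15 phosphate starvation genes 2 were called (13.3%, against 3.97% of all genes tested), both lower. All 15 had negative log2 changes, with a median of -0.47. IPS1, a non-coding RNA that binds miR399, stood at 10.7, 17.4 and 18.8 CPM in clpp2-1 and at 5.77, 4.53 and 4.55 CPM in clpp2-2 (log2 -1.66, SE 0.34, adjusted p = 0.0375). SPX3, a phosphate sensor protein, was at 3.31 ± 1.30 and 1.19 ± 0.0298 CPM (log2 -1.47, adjusted p = 0.0333). PAP14, a purple acid phosphatase, was at 5.45, 10.6 and 6.35 CPM and at 1.84, 1.56 and 1.33 CPM (log2 -2.24, SE 0.42, adjusted p = 0.0269). In these genes clpp2-1 1 was the lowest library of its line. IPS1 and PAP14 lost their calls without any library of the lines but clpp2-1 1 (up to 0.147 and 0.111), and SPX3 without any of those or wt 1 (up to 0.129). With limma-voom 0 of the 15 were called, and PAP14 also lost its call. Of 11 suberin genes 1 was called (9.09%, against 3.97% of all genes tested), and all 11 were negative, with a median of -0.54. The called gene was RWP1, a feruloyl transferase (18.6 to 12.7 CPM, log2 -0.55, adjusted p = 0.0242). Its call was lost without clpp2-1 3 or any clpp2-2 library (up to 0.111). Summed over the 16 root markers, the level was 128, 112 and 135 CPM in the clpp2-1 libraries and 126, 111 and 110 CPM in the clpp2-2 libraries, whose part in these results was not tested. The median over the 15 tested root markers was -0.03, with 7 positive, and that of 14 iron supply genes was 0.02. In whole seedlings, fewer cells of a type and less RNA per cell cannot be told apart.

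Stress and defence regulators differed gene by gene. WRKY40, a rapid stress factor, stood at 6.78, 4.77 and 4.73 CPM in clpp2-1 and at 15.6, 14.4 and 20.3 CPM in clpp2-2 (log2 1.63, SE 0.23, adjusted p = 0.00963; 0.0511 without clpp2-1 3). ERF5 stood at 12.9, 10.5 and 12.5 CPM and at 33.0, 33.9 and 30.8 CPM (log2 1.44, SE 0.21, adjusted p = 0.0116), and lost its call without clpp2-1 3 or clpp2-2 2 (0.0519 and 0.056). They were the 2 called of 11 rapid response factors, whose median was 0.36. BGL2, the pathogenesis-related glucanase PR2, was lower, at 57.1, 113 and 89.2 CPM and at 26.3, 40.4 and 40.5 CPM (log2 -1.27, SE 0.26, adjusted p = 0.0331; 0.0838 to 0.11 without any library of the lines but clpp2-1 1). It was the 1 called of 12 salicylic acid and defence genes (8.33%, against 3.97% of all genes tested), whose median was -0.11. Of 12 hypoxia genes LBD41 (log2 0.33, adjusted p = 0.038) and AT3G10040 (log2 0.56, adjusted p = 0.042) were higher. Both calls were lost without any library of the lines but clpp2-1 1, and that of LBD41 also without wt 1 (up to 0.127 and 0.142).

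Of 13 genes of the mitochondrial dysfunction response edgeR called 0, 6 had an unadjusted p under 0.05, limma-voom called 0 and DESeq2 3, all lower, and the median was -0.27. AOX1A, the alternative oxidase that marks this response, was at 137 ± 14.3 and 91.4 ± 6.94 CPM (log2 -0.58, adjusted p = 0.0705). Of 12 other mitochondrial proteases and chaperones edgeR called 0, with 1 at an unadjusted p under 0.05, limma-voom called 0 and DESeq2 1, and the median was 0.00. EdgeR also called 0 in the lists of abscisic acid, heat shock, jasmonate, clock, flavonoid, cell wall, mitotic, senescence, root, stomatal and trichome genes. In this order 15, 9, 11, 14, 14, 15, 16, 9, 15, 9 and 6 members were tested. Of these 6, 3, 1, 3, 6, 4, 1, 1, 2, 1 and 0 had an unadjusted p under 0.05 in edgeR. DESeq2 called 3, 2, 1, 1, 2, 4, 0, 1, 0, 0 and 0 of the members in the same order. Limma-voom called 1 abscisic acid gene and none of the others. Over all 20294 genes tested, 4269 had an unadjusted p under 0.05 in edgeR and DESeq2 called 1776. Of 18 light-harvesting and Rubisco small subunit genes 1 was called (5.56%, against 3.97% of all genes tested), and 17 of the 18 were positive with a median of 0.23. The called gene was RBCS2B (205 ± 15.5 to 391 ± 41.1 CPM, log2 0.93, adjusted p = 0.0146). It lost the call without clpp2-1 1, clpp2-1 3, clpp2-2 2 or clpp2-2 3 (up to 0.0686), and its coding sequence is 94.3% identical to that of its neighbour RBCS3B (588 and 976 CPM, adjusted p = 0.0566). Single genes were called in 4 more lists, at 8.33, 7.14, 5.88 and 5.88% of their tested members against 3.97% of all genes tested. They were IAA20 of 12 auxin response genes (log2 3.34, adjusted p = 0.0371) and NAS4 of 14 iron supply genes (log2 1.12, adjusted p = 0.0328). The others were MYB51 of 17 glucosinolate genes (log2 0.60, adjusted p = 0.0228) and CER3 of 17 wax and cutin genes (log2 0.34, adjusted p = 0.0413). Each of these calls was lost with at least 5 of the 9 libraries left out in turn (up to 0.131, 0.127, 0.0907 and 0.123).

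**Figure D4:**
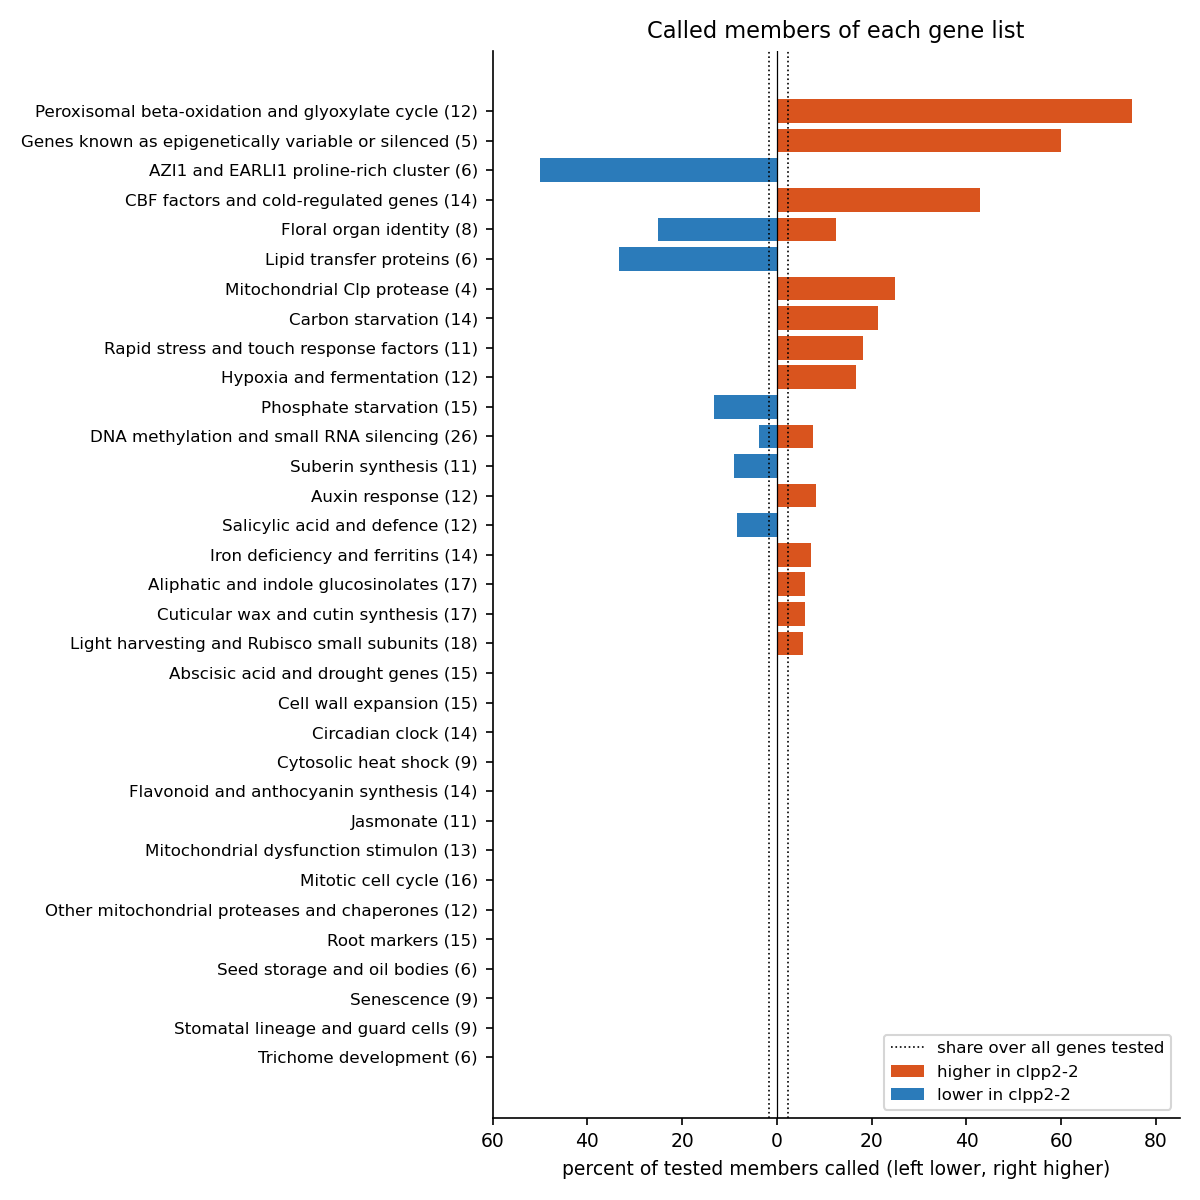
Percent of the tested members of each gene list that were called, to the right where higher in clpp2-2 (orange) and to the left where lower (blue), with the number tested in brackets and dotted lines at the shares over all genes, 2.34% and 1.63%. The list of peroxisomal beta-oxidation and the glyoxylate cycle reaches 75.0% higher. Of the lists drawn, which leave out the 3 lists of organelle-encoded genes, 14 have no called member.

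Further genes were named by the size of their change alone. AT5G55410, of the family of bifunctional inhibitor and lipid transfer proteins, stood at 1.28, 1.06 and 2.34 CPM in clpp2-1 and at 18.4, 11.1 and 10.6 CPM in clpp2-2 (log2 3.10, SE 0.41, adjusted p = 0.00738). AT2G21260, annotated as an NAD(P)-linked oxidoreductase, stood at 0.844, 1.66 and 1.17 CPM and at 8.62, 9.25 and 7.93 CPM (log2 2.81, SE 0.24, adjusted p = 0.000973). AT1G73120, for an F-box protein, stood at 28.7, 39.1 and 38.4 CPM and at 120, 119 and 114 CPM (log2 1.73, SE 0.24, adjusted p = 0.00937). In these genes the lowest clpp2-2 library was more than double the highest of clpp2-1, and the calls stood with each library left out. PORA, a light-dependent enzyme of chlorophyll synthesis, was at 0.136, 0.327 and 0.190 CPM and at 1.43, 1.44 and 1.24 CPM (log2 2.64, SE 0.49, adjusted p = 0.0274). Leaving out clpp2-1 1, clpp2-1 3 or any of the 3 clpp2-2 libraries ended the PORA call (up to 0.11). On the lower side MLP328 was at 30.9, 9.93 and 16.0 CPM in clpp2-1 and at 4.20, 4.81 and 5.25 CPM in clpp2-2 (3.99-fold lower, adjusted p = 0.0281). DES1, a cysteine desulfhydrase, was at 2.81, 1.80 and 3.31 CPM and at 0.549, 0.651 and 0.875 CPM (log2 -1.93, SE 0.33, adjusted p = 0.0212). The lines did not overlap in either gene. MLP328 lost its call without clpp2-1 3 or any clpp2-2 library (up to 0.111), and DES1 without any library of the lines but clpp2-1 2 (up to 0.0966). Among genes with at least 50 CPM, the transporter gene ABCC3 (428 ± 43.3 to 263 ± 6.82 CPM, log2 -0.70, adjusted p = 0.036) and FLA9, a fasciclin-like arabinogalactan protein gene (59.8 to 37.0 CPM, log2 -0.69, adjusted p = 0.0265), were lower, with both calls lost without any 1 library of the lines (up to 0.129 and 0.114). In all, the genes named for their size of change were 20 higher ones, by log2 1.30 to 6.27, and 21 lower ones, by log2 -0.69 to -2.98.

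Called genes also stood next to each other. In the order of tested genes, 77 of the 801 called nuclear genes formed 26 runs of higher and 11 runs of lower neighbours. How many runs a random order would give was not worked out. The longest, on chromosome 1 from 27435306 to 27443859, held 4 genes for Toll-interleukin receptor domain proteins, which act in immune signalling. AT1G72910 stood at 2.59, 2.48 and 1.98 CPM in clpp2-1 and at 5.49, 7.44 and 7.23 CPM in clpp2-2 (log2 1.51, SE 0.17, adjusted p = 0.00304), and AT1G72920 at 2.15, 3.38 and 2.77 CPM and at 8.62, 10.9 and 10.3 CPM (log2 1.84, SE 0.18, adjusted p = 0.00184). TIR was at 35.0 and 55.8 CPM (log2 0.67, adjusted p = 0.0312) and AT1G72940 at 31.4 and 46.5 CPM (log2 0.57, adjusted p = 0.0218), and both lost their calls without any library of the lines but clpp2-2 1 (up to 0.117 and 0.0908). A run of 3 on chromosome 4, from 13009690 to 13019400, held the transporter gene ABCB28 (log2 0.32, adjusted p = 0.0328) beside CBF2 and DREB1A. ABCB28 lost its call without any 1 library of the lines (up to 0.127).

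A few genes had no counts at all in one line. AT3G09360, annotated as a cyclin/Brf1-like TBP-binding protein, had 0 counts in each clpp2-1 library. It stood at 5.44, 4.75 and 8.44 CPM in clpp2-2, at least 76.1-fold higher by a floor of 3 counts per library. The wild-type libraries were at 5.13, 2.79 and 2.05 CPM. AT1G73350, an ankyrin repeat protein gene, was at 0 in every clpp2-1 and wild-type library and at 3.38, 5.97 and 3.81 CPM in clpp2-2, at least 53.7-fold higher. In the other direction AT1G72250, a kinesin gene, was at 1.85, 1.91 and 3.23 CPM in clpp2-1 and at 0 in clpp2-2, at least 27.8-fold lower. AT3G54930, for a B subunit of the phosphatase PP2A, was at least 18.8-fold lower, a call lost when clpp2-1 1 was left out together with wt 1. AT3G18840 was at least 15.5-fold higher, a call lost without any 1 library of the lines (0.0512 to 0.0724). AT3G02400, with a forkhead-associated domain, was at 12.5, 12.2 and 13.1 CPM and at 0, 1.27 and 1.19 CPM (log2 -3.94, SE 0.63, adjusted p = 0.0156), with its call lost without clpp2-1 3, clpp2-2 2 or clpp2-2 3 (up to 0.0597), and without clpp2-1 1 and wt 1 together. The wild-type means of AT1G72250, AT3G54930, AT3G18840 and AT3G02400 were 2.21, 1.74, 1.06 and 14.7 CPM. Of the table, 386 genes had 0 in some libraries of any genotype and at least 30 counts in every other. Of these 97.4% have more than 1 annotated transcript, against 45.9% of all nuclear genes tested. Of the 386, 317 were tested, and 5 of those were called between the lines (1.58%, against 3.97% of all genes tested). Among the 5 were AT3G09360, AT1G73350, AT1G72250 and AT3G02400. In 12 of the 386, every library of 1 line was at 0 and every library of the other had at least 30 counts. Most of these 12 were thus not called. Whether the assignment of reads bears on these zeros was not tested. Intervals and floors cover counting error only.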

How the data were processed

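RNA of whole seedlings was sequenced, and the table deposited by the authors holds expected counts, that is, estimated counts of reads per gene in whole numbers, for 22254 genes. Per the submitters' processing notes the build was TAIR10 and the tools included Salmon 0.14.0, FastQC, DESeq and DESeq2, with no role stated. No source used here gives the strand of the libraries. Totals lay within 36043744 to 36477053, so scaling before deposition is possible, and floors of 3 counts assume unscaled counts.

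The deposited counts were fitted with edgeR 4.0.16 (R 4.3.3; filterByExpr, TMM, quasi-likelihood) on all 9 libraries, 3 per group, with the contrast clpp2-2 minus clpp2-1. The filter removed 1960 genes, and the common biological coefficient of variation was 0.176. SEs were obtained as the absolute log2 change divided by the square root of F. Calls needed an adjusted p under 0.05 over the 20294 genes tested. Shares of counts were compared by exact permutation. Gene names, positions and sequences came from RefSeq TAIR10.1, which pairs no names with the 118 mitochondrial and 80 plastid identifiers as used here. Coding sequences were aligned globally with Biopython 1.88. Gene lists were described by counts and medians.

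Named genes were, among called genes whose libraries did not overlap, the 15 higher and 15 lower with the largest change (counts in all 6 libraries, at least 1 CPM in the higher line), up to 5 each way with a 0, the 8 each way with at least 50 CPM, up to 4 members of each list by adjusted p, and runs of at least 3 neighbours. A few genes and 1 promoter window are not reported here. Members and lists were chosen with earlier results of these data known.

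Alternatives were DESeq2 1.42.0 (size factors or Wald test), limma-voom 3.58.1, no filter, only the lines' libraries, a replicate block, library sizes without organelle genes, GC and length trends removed, a 2-fold threshold and each library left out. No pair of replicates was a duplicate: chi-square per gene was 6.39 to 33.2 within groups, above counting error. The test was tried on simulated counts over 20294 genes, with 67, 67 and 66 genes changed 1.5-, 2- and 4-fold. EdgeR called 47.8, 74.6 and 92.4% of these, with 2.05% of its calls false. Simulated spread depended on the level alone, and all other genes had the same mean share in every group. The changed genes were not drawn from those with the lowest counts. These rates may thus not hold for the real libraries.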

Additional observations from a re-analysis of the deposited data

How the results depend on the processing

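The count of 806 called genes became 1776 with the DESeq2 Wald test, 1494 in a fit of only the lines' libraries and 199 at a 2-fold threshold. In the simulation 13.8% of DESeq2 calls were false, a rate that may not hold for the 1776. With single libraries left out the count was 171 to 1463. It was 326, 373 and 199 without clpp2-1 1, 2 and 3, and 291, 171 and 209 without clpp2-2 1, 2 and 3. Without wt 1, 2 and 3 it was 739, 1463 and 911. In an alternative chosen after seeing the data, without both clpp2-1 1 and wt 1, it was 336. That fit called 6 of the 12 genes of the beta-oxidation and glyoxylate cycle list. A further such fit also left out wt 2, where the lone wild-type library is assumed to vary like the others. DESeq2 size factors (799), no filter (739), limma-voom (816), library sizes without organelle genes (810) and removed GC and length trends (707) kept the count within 1.5 times. The share of called genes that were higher in clpp2-2 was 58.9%, and 56.5 to 77.8% over these alternatives and the blocks; no gene of the 806 changed sign among those tested in them. The causes were not tested. Of 82 named called genes 11 were called in all 21 alternatives (AT3G44006, AT2G47780, MRD1, AT2G21260, AT2G05915, AT1G73120, LTP3, HEI10, COR15B, CBF2 and AT1G72920), and 47 lost the call with at least 1 library left out.

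Replicate numbers are shared by the groups, but same-numbered libraries of the lines did not deviate together (r = -0.169, -0.01 and -0.179 over 11806 genes). The replicate block gave 513 called genes, 456 of them among the 806, with removed trends 474, and with only the lines' libraries, chosen after seeing the data, 45. Of the 12 genes of the beta-oxidation and glyoxylate cycle list, 9 of them called without a block, these 3 fits called 7, 8 and 0. They called 0 of the 15 phosphate starvation genes, and ended the call of AT3G54930. The differences in organelle share kept their direction with each library of the lines left out. Depth limits what can be said of low genes, since 3 counts per library stood for 0.0817 CPM on average in clpp2-1 and 0.084 CPM in clpp2-2: 1.67% of the 2279 genes below 1 CPM were called, against 4.62% of those from 10 to 100 CPM.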

Other observations

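Among genes outside the groups above, chosen after their values were seen, those with the smallest adjusted p included YSL6, a transporter of metal-nicotianamine complexes, at 20.3, 20.9 and 21.8 CPM in clpp2-1 and at 52.9, 50.01 and 49.3 CPM in clpp2-2 (log2 1.27, SE 0.05, adjusted p = 4.16e-05). AT1G80440, a kelch repeat protein gene, was at 4.52, 3.54 and 4.13 CPM and at 18.4, 18.1 and 18.0 CPM (log2 2.16, SE 0.10, adjusted p = 4.34e-05). Both were called with each library left out, and the wild-type means, 20.8 and 4.18 CPM, were near those of clpp2-1. Of the lower genes, AT2G05915, an uncharacterized protein gene, was at 14.7, 15.9 and 16.9 CPM in clpp2-1, at 3.52, 3.20 and 2.88 CPM in clpp2-2 and at 6.77 CPM in the wild-type mean, between the lines (log2 -2.31, SE 0.16, adjusted p = 0.000543). AT2G25450, a 2-oxoglutarate-dependent dioxygenase gene, was at 251, 255 and 233 CPM and at 147, 154 and 155 CPM (log2 -0.70, SE 0.05, adjusted p = 0.000716).

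In windows of 20 tested genes in order along the chromosomes, without overlap between windows, 454 held no called gene, 360 held 1 and the 2 fullest held 5. These counts were not compared with a random order. The genes higher in clpp2-2 had a median exon length of 1619 bases and 41.8% GC, the lower ones 1891 bases and 41.4%, and all nuclear genes tested 1757 bases and 41.2%.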
